A study of Mus musculus with 8 samples.

Results

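The contractile apparatus of skeletal muscle is built from slow and fast versions of the same proteins, and 32 of the genes that encode these versions and their partners are described here in the tibialis anterior, a fast muscle of the lower hind limb. They are 32 of 24341 genes listed, taken by name: light chains, troponins, tropomyosins, myosin-binding proteins, actins, alpha-actinins, Z-disc partners and a few fibre-type enzymes, without the myosin heavy chains. By fibre class 12 are slow, 14 fast and 6 other, the last found in both classes or in developing or stressed muscle. All 32 were found once in every table, and 29 had the status OK in all 8 libraries and reached 1 scaled FPKM in 4 or more of them, the filter for testing. Acta1, Tnnt3 and Tpm1, listed at 0 with a low-data status in some libraries, are given as values and were not tested. FPKM are levels per transcript length and per size of the library, and scaled FPKM are FPKM divided by one factor per library.

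Bulk RNA came from frozen muscle of 8 chow-fed mice, which the labels call male and give an age of 12 weeks. The 4 knockouts (Carm1 skm-/-) carried floxed Carm1 and the Cre transgene HSAcre Tg/0, and the 4 controls (Carm1 skm+/+) carried floxed Carm1 without Cre (HSAcre 0/0). Carm1 encodes a protein arginine methyltransferase. The human skeletal actin promoter drives Cre in muscle fibres, so other cells of the muscle keep the gene, and presence of Cre and loss of Carm1 cannot be told apart.

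A muscle fibre shortens when myosin heads on the thick filament pull on actin in the thin filament. Calcium binding to troponin C moves tropomyosin off the myosin-binding sites, with troponin I as the inhibitory subunit and troponin T as the link to tropomyosin. Essential and regulatory light chains sit on the neck of each myosin head. The Z-disc, built on alpha-actinin, anchors the thin filaments and holds stretch-sensing partners. Slow fibres and fast fibres use different genes for most of these parts, and the mouse tibialis anterior is made almost wholly of fast fibres.

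Carm1 was lower in every knockout than in every control, at 27.1, 37.4, 27.3 and 30.1 scaled FPKM in controls 1 to 4 and 18.0, 12.7, 17.2 and 13.8 in knockouts 1 to 4, a log2 difference of -0.94 (exact permutation p = 0.0286, 2-sided, the smallest that 70 assignments can give; adjusted p from limma 0.0466). Summed FPKM lay between 604428 and 681042 per library, and no read depth is given. Against the description as male, 3 libraries, control 1, knockout 2 and knockout 4, held Xist, the RNA of the inactive X chromosome, at 20.1, 21.5 and 19.3 scaled FPKM, and held at most 0.114 of the Y-linked Eif2s3y. Results are accordingly repeated with Xist in the model or with these 3 libraries left out. Knockout 2 and knockout 4 were also free of the low-data status, which 5 to 10 genes had in each other library. Tnnt3 and the type IIb myosin Myh4 had it in all 6 of those, Acta1 in 4 and Tpm1 in 2. The skeletal muscle markers desmin and titin were abundant in every library, their sum lying between 1017 and 1425 scaled FPKM. Of the cardiac markers Myl7 was listed at 0 in every library, and the 6 cardiac markers together summed to at most 2.83 scaled FPKM.

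Promoter sequence is shown for 4 slow members to which the results return: Myoz2 and Myl3, which passed the test by presence of Xist, and the slow troponins Tnnt1 and Tnnc1, which did not and were highest in knockout 1, a library without Xist. They were picked after these values were seen. Of the fits that left out 1 library, Myl3 passed by presence of Xist only in that without control 3. Each is the 250 bases before a RefSeq transcription start (GRCm38.p6), written along the gene's own strand, with capitals for matches to E-box (CANNTG, bound by the myogenic basic helix-loop-helix factors), MCAT (CATTCC, bound by TEAD factors), TATAAA, MEF2 and CArG motifs on either strand.
Myoz2 promoter (chr3:123034988-123035237, minus strand): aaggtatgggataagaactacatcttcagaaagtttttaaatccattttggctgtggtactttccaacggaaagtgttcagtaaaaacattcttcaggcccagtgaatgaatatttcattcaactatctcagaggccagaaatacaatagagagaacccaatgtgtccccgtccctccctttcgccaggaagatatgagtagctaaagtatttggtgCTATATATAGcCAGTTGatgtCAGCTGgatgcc
Myl3 promoter (chr9:110763428-110763677, plus strand): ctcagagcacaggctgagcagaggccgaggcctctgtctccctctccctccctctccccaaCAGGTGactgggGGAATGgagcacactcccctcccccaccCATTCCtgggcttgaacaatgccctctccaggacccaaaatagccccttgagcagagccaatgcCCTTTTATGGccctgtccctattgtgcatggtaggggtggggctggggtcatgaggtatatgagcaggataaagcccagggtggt
Tnnt1 promoter (chr7:4515976-4516225, minus strand): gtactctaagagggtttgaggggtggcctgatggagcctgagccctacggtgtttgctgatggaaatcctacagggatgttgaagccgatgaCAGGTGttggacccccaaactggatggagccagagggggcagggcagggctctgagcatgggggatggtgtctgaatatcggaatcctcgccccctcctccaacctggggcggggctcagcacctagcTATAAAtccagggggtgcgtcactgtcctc
Tnnc1 promoter (chr14:31208062-31208311, plus strand): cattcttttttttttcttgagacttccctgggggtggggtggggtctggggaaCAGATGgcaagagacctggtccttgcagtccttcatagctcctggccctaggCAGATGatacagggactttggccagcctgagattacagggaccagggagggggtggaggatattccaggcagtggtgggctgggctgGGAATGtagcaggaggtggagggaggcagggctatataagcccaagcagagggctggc
In Myoz2 the MEF2 match begins 33 bases before the start, with E-box matches at 22 and 12. Myl3 holds a CArG match at 85 and MCAT matches at 177 and 149, Tnnt1 a TATAAA match at 30, and Tnnc1 an MCAT match at 58. No marked motifs overlapped in these 4 windows. Of the members 25 matched the promoter table, with 31 starts. An E-box was present in 28 of these 31 windows against 66.2% of all 32841 windows of the same length, MCAT in 9 against 12.6%, TATAAA in 6 against 12.4%, CArG in 3 against 1.47% and MEF2 in 1 against 0.509%. By class, an E-box stood in all 16 slow windows and in 7 of 8 fast windows, and MCAT in 2 of 16 slow and 4 of 8 fast windows. The members without a match were all fast: Tnnt3, Tnni2, Actn3, Myoz1, Myoz3, Ampd1 and Mylk2. Fast windows therefore stand for only a part of the fast members. Some genes gave 2 windows, and the 2 of Tnni1 overlap and share E-box matches. The 2 windows of Myl2, counted among the slow ones, end at chr5:122092723 and chr5:122093188. Both lie well upstream of the GENCODE M21 start of Myl2 at 122100951 and of its measured locus, which begins at 122100980. These matches describe letters in a window and not bound sites.

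As values, slow members were mostly higher and fast members mostly lower in the knockout, and no single member passed the test. In limma over 11096 genes, with Benjamini-Hochberg adjustment, 0 of 29 members had an adjusted p under 0.05, against 0.36% of all genes (0.198% higher and 0.162% lower), and their adjusted p lay between 0.203 and 0.996. At an unadjusted p under 0.05 stood 8 of 29 members, against 13.1% of all genes. Of the 12 slow members 11 had a log2 difference above 0, with a median of 0.37 (10 of 11 and 0.41 without Actn2, which is counted as slow beside the fast Actn3 but is found in all fibres), and of the 12 tested fast members 12 had one below 0, with a median of -0.38. Over all genes 50.5% were below 0 and the median was -0.0021. With quantile normalization 9 of the 12 fast members were below 0 and their median was -0.08, Tnni2, Mybpc2 and Actn3 turning above 0. Control and knockout values did not overlap for 4 of 29 members, Tnnt1, Tpm2 and Myl4 higher and Mylpf lower, against 8.31% of all genes (4.67% higher and 3.64% lower). That count of 4 was 7 without control 1, where 14.6% of all genes did not overlap, and 7 without knockout 3, where 14% did not. As the tissue was sequenced in bulk, a smaller number of fibres of a type and less RNA per fibre cannot be told apart.

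The slow and fast medians were both nearer 0 when Xist was taken into account. With Xist as a covariate the slow median was 0.10 and the fast median -0.22, with 8 of 12 slow members above 0 and 10 of 12 fast members below it. Of the 29 members 0 passed against 2.01% of all genes (1.09% higher and 0.919% lower), and 8 had an unadjusted p under 0.05, against 18.6% of all genes. The smallest adjusted p was 0.0978, for Myl4. In the 5 libraries without Xist, 3 controls and 2 knockouts, the medians were -0.03 and -0.09, 6 of 12 slow members were above 0 and 9 of 12 fast members below it. There 0 of 29 passed, against 0.027% of all genes, and 5 had an unadjusted p under 0.05, against 12.4% of all genes. Values there did not overlap for 11 members, 7 higher and 4 lower, against 31.8% of all genes (16.8% higher and 15% lower). Without knockout 2 and knockout 4 the slow median was -0.16 and the fast median 0.0050.

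**Figure D1:**
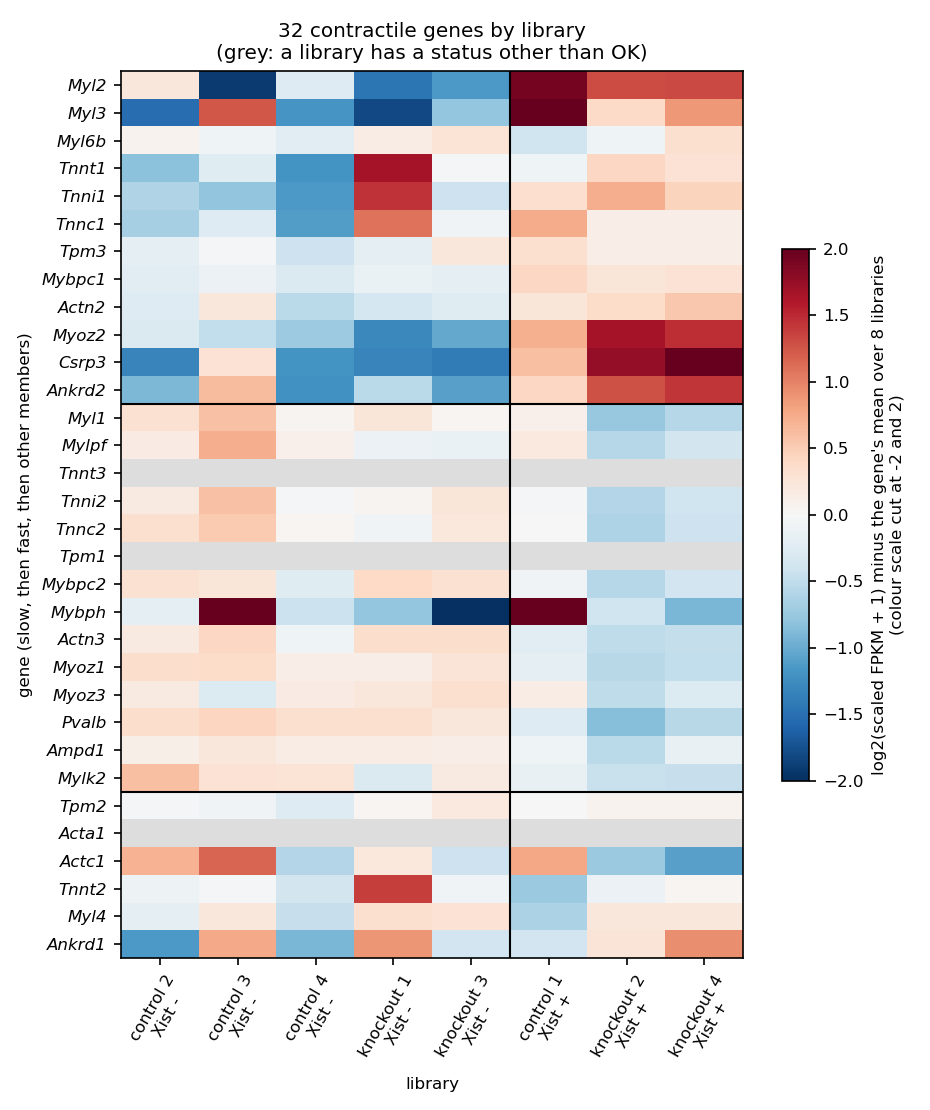
Heat map of the 32 genes (rows: slow, fast, then other members) in the 8 libraries (columns; the 3 with Xist stand right of the vertical line). Colour is log2(scaled FPKM + 1) minus the gene's mean over the 8 libraries, and grey rows hold a status other than OK. Myl2, Myoz2 and Csrp3 are red in the 3 right-hand columns whatever the genotype, while Tnnt1, Tnni1 and Tnnc1 are reddest in knockout 1, which has no Xist.

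Among slow members of the thick filament, Myl2, the slow regulatory light chain, and Myl3, the slow essential light chain, were spread over more than an order of magnitude. Myl2 stood at 152, 46.5, 9.83 and 33.0 scaled FPKM in controls 1 to 4 and at 13.9, 99.1, 17.4 and 101 in knockouts 1 to 4. Its 3 highest values were those of the 3 libraries with Xist, 1 control and 2 knockouts, and the genotypes overlapped. The log2 difference between knockout and control was 0.02 (SE 0.90, adjusted p = 0.996). Myl3 stood at 247, 11.7, 86.1 and 15.3 in controls and 9.54, 46.8, 20.5 and 66.0 in knockouts, with control 1 far above the rest and control 3 second. Its difference was -0.65 (SE 0.98, adjusted p = 0.827), and 0.15 without control 1. Mybpc1, the slow myosin-binding protein C, stood at 1177, 756, 807 and 721 in controls and 804, 1037, 778 and 1074 in knockouts, again highest in the 3 libraries with Xist. Its genotype difference was 0.11 (SE 0.18, adjusted p = 0.847). Mybpc1 is counted as slow by its name, but it was no trace here, at 62.9 to 159 FPKM per 100 of the fast Mybpc2. Myl6b, a slow and non-muscle essential light chain of low level here, stood at 5.08, 7.35, 6.55 and 5.81 in controls and 7.85, 6.50, 8.64 and 8.94 in knockouts, with a difference of 0.32 (SE 0.13, adjusted p = 0.320) and no such arrangement by Xist. Myl2 overlaps Ccdc63 and Myl3 overlaps Pth1r on the opposite strand in GENCODE M21, and the kit is not stated to mark strand, so reads of these partners cannot be told apart.

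Slow members of the Z-disc also varied widely between libraries. Csrp3, muscle LIM protein, stood at 321, 83.4, 259 and 91.1 scaled FPKM in controls and 84.1, 716, 79.1 and 1260.4 in knockouts. Knockout 4 and knockout 2 were the highest, and knockout 1 and knockout 3 were as low as controls 2 and 4. The mean was 284% of the control mean, the difference 0.81 (SE 0.95, adjusted p = 0.771), and -0.61 in the 5 libraries without Xist. Myoz2, the slow calcineurin-binding calsarcin, stood at 177, 88.0, 76.3 and 64.6 in controls and 43.5, 343, 52.4 and 304 in knockouts. Among libraries without Xist both knockouts lay below all 3 controls, and among those with Xist both knockouts lay above the control. Its differences were 0.41 (adjusted p = 0.851) over all libraries and -0.65 (adjusted p = 0.237) without Xist. Ankrd2, an ankyrin-repeat protein of slow fibres that responds to stretch, stood at 182, 73.4, 213 and 58.4 in controls and 93.8, 333, 63.8 and 373 in knockouts, with control 3 as the highest library without Xist. Actn2, the alpha-actinin found in all fibres, stood at 517, 366, 512 and 299 in controls and 343, 561, 369 and 633 in knockouts, with differences of 0.54 for Ankrd2 (adjusted p = 0.784) and 0.16 for Actn2 (adjusted p = 0.837). In the 5 libraries without Xist both signs turned, to -0.33 and -0.11.

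**Figure D2:**
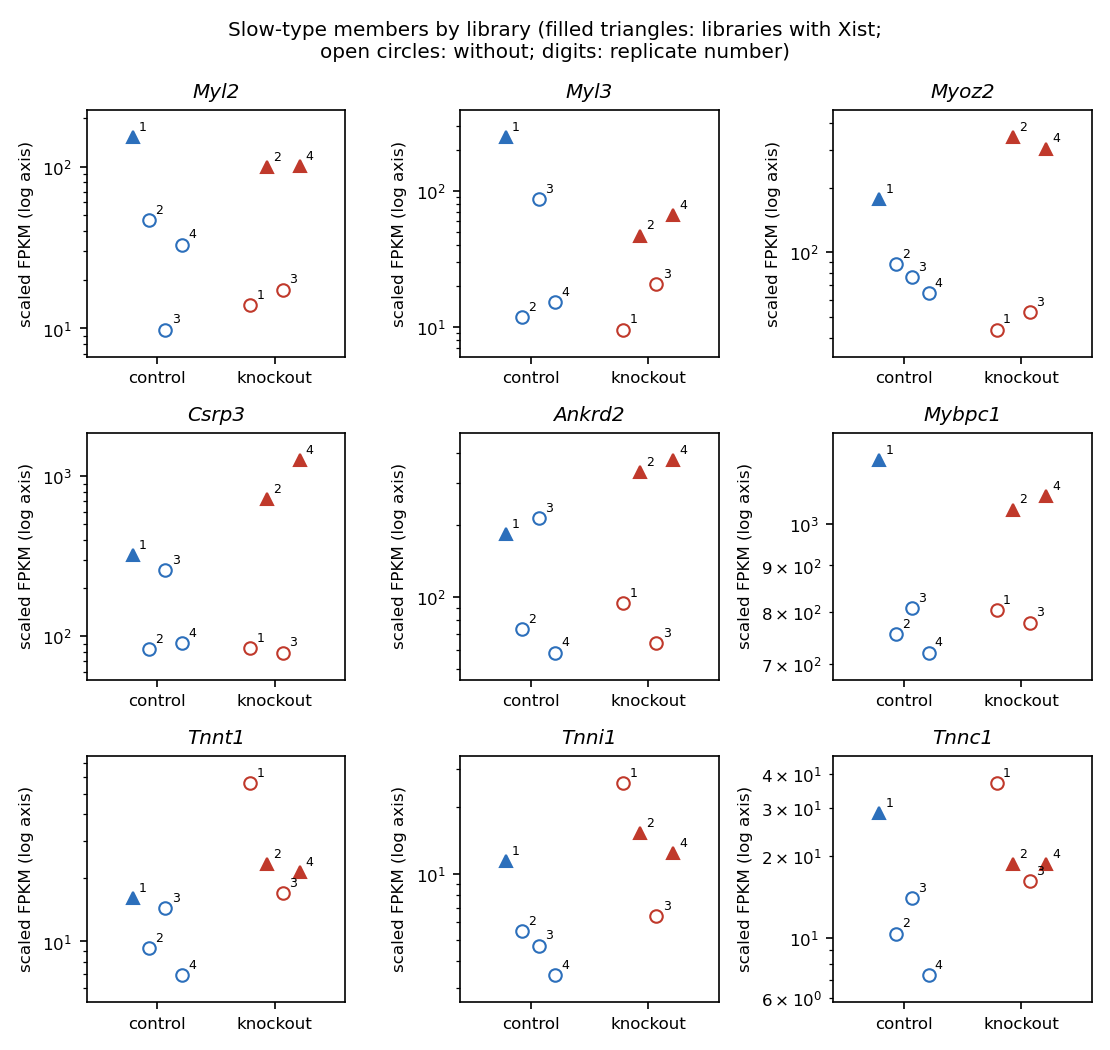
Scaled FPKM of 9 slow members in each library on a log axis, controls in blue and knockouts in red, with filled triangles for the 3 libraries with Xist, open circles for the 5 without and digits for the replicate number. In the panels of Myl2, Myoz2, Csrp3 and Mybpc1 the triangles lie above the circles in both genotypes, and in those of Tnnt1, Tnni1 and Tnnc1 the highest point is the open circle of knockout 1.

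The slow troponins were higher in knockouts as values, with the highest value of each in knockout 1, a library without Xist. Tnnt1, slow troponin T, lies at chr7:4504570-4516382 (mm10) and stood at 16.1, 9.30, 14.4 and 6.90 scaled FPKM in controls and 56.4, 23.3, 17.0 and 21.2 in knockouts. The 4 knockouts lay above the 4 controls, knockout 3 by a small margin over control 1. Its difference was 1.17 (SE 0.38, adjusted p = 0.230), 1.17 with Xist as a covariate and 1.57 without the libraries with Xist. Tnni1, slow troponin I (chr1:135779434-135810989), stood at 11.4, 5.48, 4.70 and 3.44 in controls and 25.8, 15.3, 6.38 and 12.4 in knockouts, where only knockout 3 lay within the control range. Its difference was 1.10 (SE 0.42, adjusted p = 0.307). Tnnc1, the troponin C of slow and cardiac muscle (chr14:31208312-31211729), stood at 28.9, 10.4, 14 and 7.26 in controls and 37.1, 18.7, 16.1 and 18.6 in knockouts, with control 1 second only to knockout 1. Its difference was 0.65 (SE 0.39, adjusted p = 0.527), and 1.0 without control 1. None of the 3 passed in any of the 19 alternative fits, where at most 2.01% of all genes did. All 3 kept a value above 0 in those fits, between 0.38 and 1.57. Tnnc1 overlaps Nisch on the opposite strand.

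Knockout 1, the highest library for all 3 slow troponins, also stood apart in genes known to be induced in denervated fibres. Their 5 markers summed to 118 scaled FPKM in knockout 1, between 35.4 and 49.1 in the other knockouts and between 30.8 and 46.5 in controls. Chrna1, the acetylcholine receptor alpha subunit, stood at 39.3 in knockout 1 and at or below 6.98 elsewhere, and Chrng, the fetal gamma subunit, at 2.91 and at or below 0.347. Of the 5, 3 passed the filter and 0 passed the test between genotypes (0 of 3 also at an unadjusted p under 0.05). Among the other 7 libraries the 3 with Xist were the highest for Tnni1 and Tnnc1, and for Tnnt1 knockout 3 lay above control 1. Without knockout 1 the genotype differences of Tnnt1, Tnni1 and Tnnc1 were 0.82, 0.80 and 0.39. The summed level of 4 tendon markers was also highest in knockout 1, at 57.3 against at most 31.6 elsewhere, with Scx and Fmod highest there and Tnmd and Mkx highest in knockout 2. The part of either set of genes in the troponin values was not tested beyond leaving out knockout 1. Tpm3, which encodes the slow alpha tropomyosin and also non-muscle forms, did not share the peak of knockout 1, at 45.7, 31.5, 35.7 and 27.0 in controls and 31.9, 39.8, 42.4 and 39.6 in knockouts, with a difference of 0.15 (SE 0.16, adjusted p = 0.747).

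Fast light chains and their kinase were lower in knockouts as values, by amounts that depended on the normalization. With quantile normalization the log2 differences were -0.11 for Mylpf, -0.30 for Myl1 and -0.38 for Mylk2. Mylpf, the fast regulatory light chain and among the most abundant RNAs of the tissue, lies at chr7:127208890-127214298 and stood at 24714, 24345, 35719.5 and 23250.1 scaled FPKM in controls and 19991, 14635, 19727 and 16816 in knockouts. All 4 knockouts lay below all 4 controls, and control 3 stood well above the other controls. Its difference was -0.59 (SE 0.18, adjusted p = 0.203), and -0.46 in the 5 libraries without Xist, where the groups again did not overlap. Myl1, the fast essential light chain, stood at 12819, 14776, 17976 and 12493 in controls and 14124, 7127, 12364 and 8074 in knockouts, the 2 knockouts with Xist being lowest. Its difference was -0.52 (SE 0.24, adjusted p = 0.400), and -0.17 without the libraries with Xist. Mylk2, the skeletal myosin light chain kinase, which phosphorylates the regulatory light chain, stood at 432, 732, 586 and 578 in controls and 394, 355, 543 and 350.0 in knockouts, with a difference of -0.50 (SE 0.19, adjusted p = 0.307). Only knockout 3 and control 1 overlapped across the genotypes, and the value was -0.44 without the libraries with Xist.

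Among fast thin-filament genes the 2 lowest libraries were knockout 2 and knockout 4. Tnni2, fast troponin I, stood at 22497, 26146, 34505 and 22431 scaled FPKM in controls and 24019, 15324, 27236 and 17415 in knockouts, and Tnnc2, fast troponin C, at 25183, 31093, 35773 and 25683 in controls and 23679.7, 16283, 28920.3 and 18662 in knockouts. Knockout 3 lay within the control range for both genes, and knockout 1 did for Tnni2 but lay below every control for Tnnc2. Tnni2 differed by -0.35 (SE 0.22, adjusted p = 0.548) between genotypes. For Tnnc2, which overlaps Ube2c on the opposite strand, the difference was -0.45 (SE 0.21, adjusted p = 0.404). The same values were -0.09 and -0.22 for Tnni2 and Tnnc2 without the libraries with Xist, and 0.13 and -0.022 with quantile normalization. Tnnt3, fast troponin T, had the status OK in knockout 2 and knockout 4 alone, at 21158 and 22169.8, and was listed at 0 in the other 6. Its locus in the tables is shared with Lsp1 and Prr33, which have the same status as Tnnt3 in every library. Tpm1, the fast alpha tropomyosin, was listed at 0 in control 3 and knockout 1. It stood at 17415, 21894 and 18078 in controls 1, 2 and 4 and at 13566, 20939 and 13199 in knockouts 2 to 4. With 3 against 3 libraries these values overlap, and no test was made.

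Several fast Z-disc and metabolic members had their lowest values in the libraries with Xist. Actn3, the fast alpha-actinin, stood at 1778, 2339.7, 2761 and 1946 scaled FPKM in controls and 2656, 1455, 2634 and 1493 in knockouts, with a difference of -0.14 (SE 0.24, adjusted p = 0.853). Myoz1, a fast calsarcin, stood at 1836, 2644, 2679 and 2279 in controls and 2275, 1424, 2503 and 1474 in knockouts, with a difference of -0.33 (SE 0.22, adjusted p = 0.560). Both had their 3 lowest values in the 3 libraries with Xist. Pvalb, parvalbumin, which buffers calcium and speeds relaxation, stood at 11590.0, 17673, 18666 and 17217 in controls and 17245, 7697, 16263 and 9427 in knockouts, and control 1 lay far below the other controls. Its genotype difference of -0.42 (SE 0.29, adjusted p = 0.569) became -0.09 without the libraries with Xist. Ampd1, the muscle AMP deaminase, lay between 531 and 658 in controls and between 384 and 624 in knockouts, again lowest in the 3 libraries with Xist (genotype difference -0.20, adjusted p = 0.640). Myoz3, another fast calsarcin, was lowest in knockout 2, knockout 4 and control 3, at 41.8, 48.9 and 49.2, and lay between 66.2 and 74.4 in the others. Its difference of -0.12 (adjusted p = 0.847) turned to 0.25 without the libraries with Xist.

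Of the 2 fast myosin-binding proteins, Mybph spanned the wider range of levels between libraries. Mybpc2, the fast myosin-binding protein C, stood at 918, 1198, 1147 and 819 in controls and 1277, 653, 1195 and 737 in knockouts, with a difference of -0.12 (SE 0.24, adjusted p = 0.865). Mybph, myosin-binding protein H, had the widest genotype difference of the 29 as a value, -2.06 (SE 0.71, adjusted p = 0.257). It stood at 132, 24.3, 165 and 20.5 scaled FPKM in controls and 15.9, 20.9, 6.04 and 14.2 in knockouts. Control 1 and control 3 were several times higher than every other library, and controls 2 and 4 lay close to the knockouts. Mybph shares its locus in the tables with Adora1 on the opposite strand, which had at most 1.39 scaled FPKM in any library.

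The members shared by both fibre classes, or known from developing or stressed muscle, had differences of both signs, 4 of the 5 tested above 0. Tpm2, beta tropomyosin, stood at 3407, 3351, 3236 and 2851 in controls and 3492, 3563, 3918 and 3566 in knockouts, every knockout above every control, with a difference of 0.18 (SE 0.10, adjusted p = 0.483). Myl4, the embryonic and atrial essential light chain, stood at 11.2, 15.5, 21.1 and 12.7 in controls and 22.7, 21.2, 22.1 and 21.1 in knockouts, again without overlap, although control 3 lay just under the lowest knockout. Its difference was 0.54 (SE 0.17, adjusted p = 0.214), with adjusted p-values of 0.0978 with Xist as a covariate and 0.0666 without control 3, the smallest of any member in the 20 genotype fits. Myl4 shares its locus in the tables with Gm11665, on the opposite strand. Tnnt2, cardiac and embryonic troponin T, stood at 3.74, 6.43, 6.81 and 5.18 in controls and 19.6, 6.33, 6.57 and 7.16 in knockouts. Knockout 1 stood far above the other 7 libraries, the difference was 0.61 (SE 0.33, adjusted p = 0.478), and 0.26 without knockout 1. Ankrd1, the cardiac ankyrin-repeat protein induced by stretch and injury, stood at 8.70, 4.71, 20.4 and 5.67 in controls and 22.4, 14, 8.71 and 22.9 in knockouts, with a difference of 0.84 (SE 0.44, adjusted p = 0.466). Myh8, the perinatal myosin and no member, fell in the knockout, from 4.82, 12.1, 8.66 and 5.02 in controls to 1.58, 0.975, 1.34 and 0.914 in knockouts, by 1.90 on the log2 scale (adjusted p = 0.0406). Its difference kept its sign in 18 alternative fits and passed in 8 of them. Myh8 did not pass without the libraries with Xist (-1.89, adjusted p = 0.160) or without knockout 2 and knockout 4 (adjusted p = 0.152). It also failed with no filter on low values (adjusted p = 0.123) and with the replicate block (adjusted p = 0.109). Nor did it pass when control 3, control 4 or any 1 knockout was left out (adjusted p from 0.0635 to 0.0970). The other 3 markers of regenerating fibres had higher means in knockouts: Myh3, the embryonic myosin, not tested at its level, stood at 0.677, 0.628, 0.721 and 0.505 in controls and 1.59, 1.28, 0.866 and 1.19 in knockouts, and Ncam1 and Chrng were high in knockout 1 alone. Actc1, cardiac alpha-actin, which developing skeletal muscle also uses and which overlaps A530058N18Rik on the opposite strand, stood at 279, 265, 368 and 109 in controls and 189, 97.0, 123 and 76.7 in knockouts, and only control 4 and knockouts 1 and 3 kept the groups from separating. Its difference was -1.02 (SE 0.39, adjusted p = 0.316), and -0.52 without the libraries with Xist. Acta1, skeletal alpha-actin, had the status OK in 4 libraries, at 20437 in control 3 and at 15239, 18698 and 15350.5 in knockouts 2 to 4.

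Slow to fast ratios within a library do not depend on its scaling. For every 100 FPKM of Tnni2 there were 0.0507, 0.0210, 0.0136 and 0.0153 FPKM of Tnni1 in controls 1 to 4 and 0.108, 0.10, 0.0234 and 0.0711 in knockouts 1 to 4. Slow troponin RNA was a trace of its fast partner in every library, and knockout 1 had the highest ratio. The knockout mean of the log2 ratio was 1.58 above the control mean for troponin I and 1.14 for troponin C, and 1.62 and 1.49 in the 5 libraries without Xist. Both troponin ratios were also higher with Xist than without, by 1.47 and 1.12 on the log2 scale, close in size to the genotype differences. The other pairs measured in all 8 libraries differed more by Xist than by genotype, by 1.05 for Mybpc1 to Mybpc2 up to 2.88 for Myl2 to Mylpf. For Myoz2 per 100 FPKM of Myoz1 the ratio was 9.62, 24.1 and 20.6 in the 3 libraries with Xist (control 1, then the 2 knockouts). Elsewhere it lay between 1.91 and 3.33. Its genotype difference turned from 0.74 over 8 libraries to -0.58 without Xist, and those of Mybpc1 to Mybpc2, Actn2 to Actn3 and Myl2 to Mylpf turned from 0.23, 0.30 and 0.61 to -0.19, -0.29 and -0.21. Myl3 to Myl1 was below 0 in both, at -0.14 and -0.66. With 3 libraries a group, Tpm3 to Tpm1 differed by 0.55. For Tnnt1 to Tnnt3 only knockout 2 and knockout 4 gave a ratio, 0.110 and 0.0958 per 100. These ratios are given without a test.

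**Figure D3:**
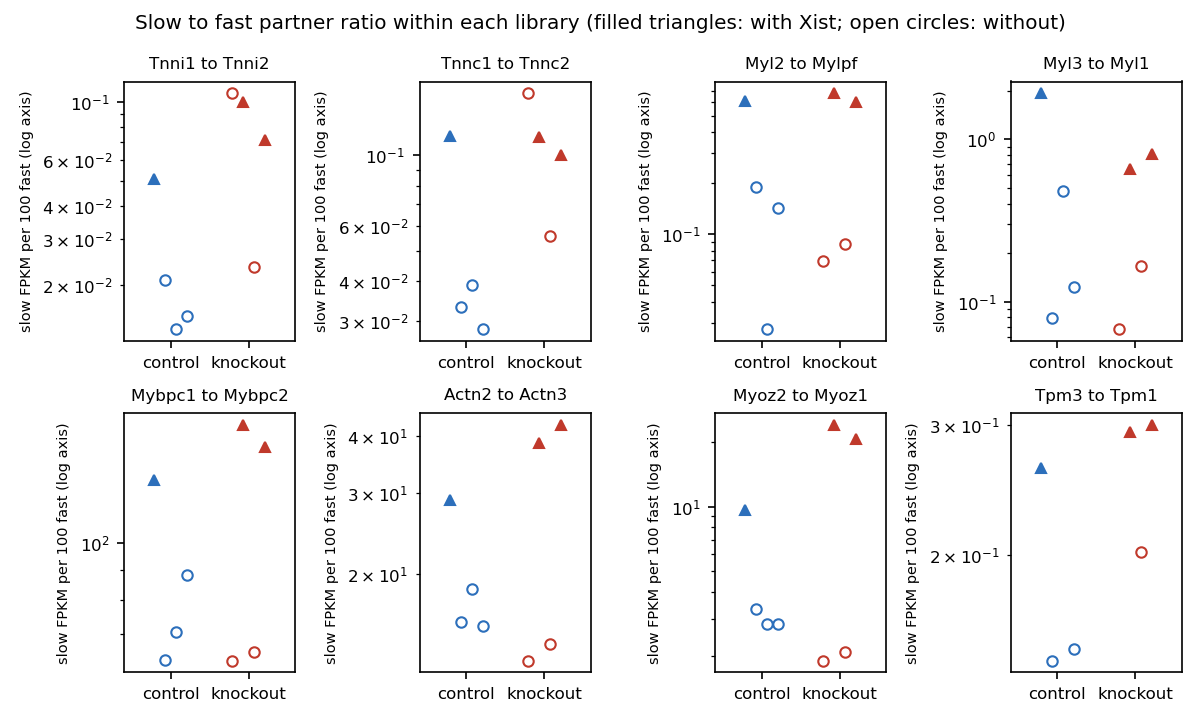
Slow FPKM per 100 FPKM of the fast partner in each library on a log axis, for 8 pairs, controls in blue and knockouts in red, filled triangles for libraries with Xist and open circles for those without. For Myoz2 to Myoz1, Actn2 to Actn3 and Mybpc1 to Mybpc2 the 3 triangles lie above all circles, and for the troponin pairs the circle of knockout 1 is the highest point.

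By presence of Xist, with genotype in the same limma fit, 8 of 29 members passed at an adjusted p under 0.05, against 12.4% of all genes (7.42% higher and 5.03% lower). The 3 libraries with Xist and the 5 without are not groups of the study, and Xist goes with whatever else those 3 libraries share. Slow members made up the 5 that were higher with Xist: Myl2 by 2.59 (SE 0.43, adjusted p = 0.0135), Csrp3 by 2.59 (SE 0.54, adjusted p = 0.0243), Myl3 by 2.48 (SE 0.65, adjusted p = 0.0462), Myoz2 by 2.08 (SE 0.29, adjusted p = 0.00831) and Mybpc1 by 0.51 (SE 0.09, adjusted p = 0.0143) on the log2 scale. Fast members made up the 3 that were lower: Pvalb at -0.82 (SE 0.13, adjusted p = 0.0118), Actn3 at -0.65 (SE 0.15, adjusted p = 0.0308) and Myoz1 at -0.61 (SE 0.11, adjusted p = 0.0149). In slow members the median was 0.58, in fast members -0.47 and over all genes -0.01, with 52.1% of all genes below 0. Values of the 3 and the 5 libraries did not overlap for 9 members, Myl2, Mybpc1, Actn2, Myoz2 and Csrp3 higher and Actn3, Myoz1, Pvalb and Ampd1 lower, against 20.7% of all genes (11.4% higher and 9.37% lower). The slow troponins stood at 0.02, 0.55 and 0.39 (Tnnt1, Tnni1 and Tnnc1; adjusted p 0.983, 0.419 and 0.564). That rests on knockout 1: without it they stood at 0.53, 1.10 and 0.84 (adjusted p = 0.211, 0.0224 and 0.145), and Tnni1 passed. The count of 8 became 2 without control 1, 5 without control 2, 10 without control 3 and 11 without control 4, where 0.757%, 6.1%, 10.4% and 18.7% of all genes were called. It became 7, 1, 6 and 4 without knockouts 1 to 4, where 4.15%, 1.76%, 5.24% and 4.49% were called. Myoz2 was among those called in each. Of these fits, Myl3 was called only in that without control 3. Actn3 was called only without control 3 or control 4, and Csrp3 only without control 1, control 3 or control 4. A genotype-by-Xist interaction, added after the data were examined, passed for 0 of 29 members (4 at an unadjusted p under 0.05, Myoz2, Csrp3, Tnnc1 and Myoz3), against 0.018% of all genes (0.00901% higher and 0.00901% lower; 2.66% at that unadjusted p).

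**Figure D4:**
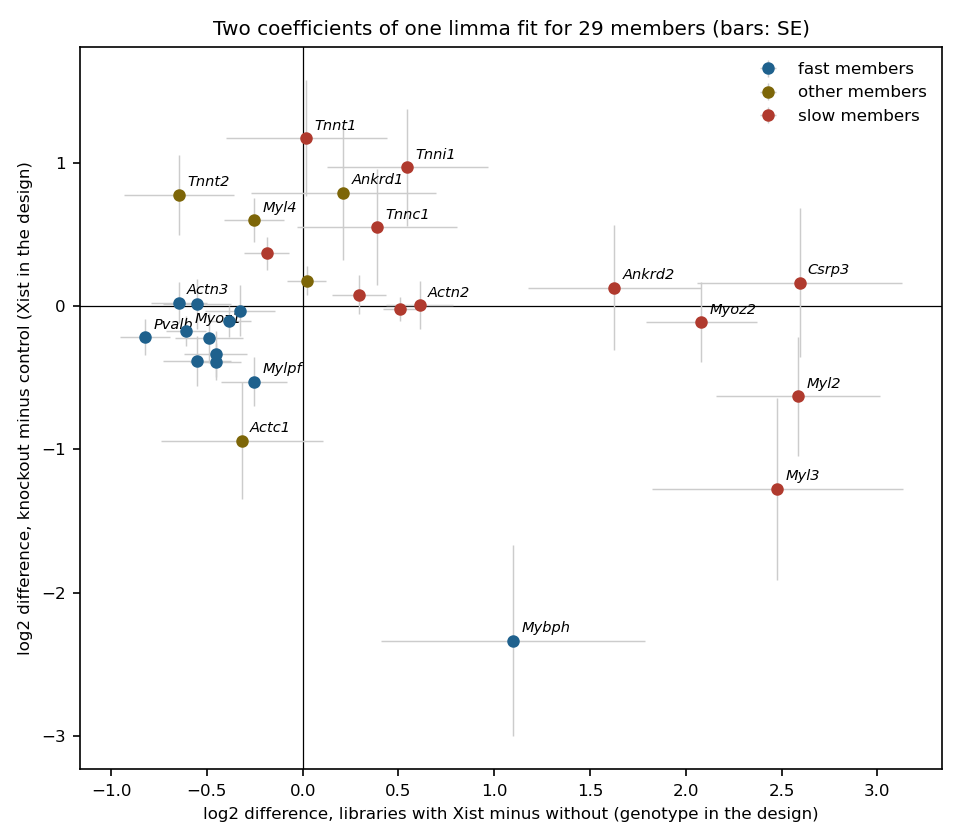
For the 29 tested members, the log2 difference between libraries with and without Xist (horizontal) against the log2 difference between knockout and control (vertical), from one limma fit with both terms, with bars for the SE. Myl2, Csrp3 and Myl3 lie to the right at 2.48 to 2.59, whereas Tnnt1 lies near 0 on the horizontal axis and at 1.17 on the vertical axis.

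Other genes of the fibre-type programme, read from a list of 34, showed no call between genotypes. Of these, 28 were tested and 0 passed in limma, against 0.36% of all genes. At an unadjusted p under 0.05 stood 5 of the 28, against 13.1% of all genes. In the slow part the smallest p-values were those of Atp2a2, the slow calcium pump, and Sln, sarcolipin, its inhibitor. Atp2a2 stood at 14.1, 9.02, 9.22 and 12.1 scaled FPKM in controls and 16.5, 16.0, 13.7 and 19.3 in knockouts, with a difference of 0.53 (SE 0.15, adjusted p = 0.189). Sln stood at 9.24, 9.32, 11.6 and 6.30 in controls and 102, 13.2, 12.4 and 12.3 in knockouts, with a difference of 1.19 (SE 0.62, adjusted p = 0.468), and all 4 knockouts lay above the controls, knockout 1 far above. Ldha, the muscle lactate dehydrogenase subunit, and Eno3, the muscle enolase, led the fast part, at -0.57 (SE 0.13, adjusted p = 0.118) and -0.43 (SE 0.15, adjusted p = 0.257). Among regulators Hdac4, a repressor of MEF2 factors, stood at 0.47 (SE 0.14, adjusted p = 0.188) and Sox6, a repressor of slow genes, at -0.36 (SE 0.13, adjusted p = 0.277). The type IIa myosin gene Myh2 was arranged as Myoz2 and Csrp3 were, at 782, 1442 and 1438 with Xist (control 1, then knockouts 2 and 4) and between 119 and 173 without, and the type I myosin gene Myh7 stood at 4.75, 1.73 and 1.83 in those 3 and between 0.468 and 0.809 in the others.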

How the data were processed

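Total RNA of tibialis anterior was sequenced; the labels' protocols name TruSeq RNA chemistry. STAR, Cufflinks and mm10 are named in the submitters' processing notes, without versions, and no annotation is named in the sources used here. Each library has a deposited table of FPKM, laid out as Cufflinks writes it per the file headers. They are not counts and carry no depth. A 0 can be a failed estimate, so 23 genes lacking the status OK somewhere were left out.

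Library factors by the median of ratios lay between 0.904 and 1.07, and the scaled values were tested as log2(scaled FPKM + 1), which understates differences of low genes. The 11096 genes that reached 1 scaled FPKM in 4 or more libraries were fitted with limma 3.58.1 in R 4.3.3 (trend), 2-sided, with Benjamini-Hochberg adjustment over all of them and a threshold of 0.05. Carm1 alone had an exact permutation test. Alternatives were no scaling, quantile normalization, a stricter filter (mean of 5 scaled FPKM), none at all, robust variances, 0.1 as pseudocount, array weights, a replicate block, Xist in the model, and libraries left out. Fits on fewer libraries kept these genes and factors. The script was tested on simulated data. Python 3.11.15 searched RefSeq promoters and drew the figures. Gene positions come from GENCODE M21, made on the mm10 assembly.

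Members, lists and tests were chosen with earlier results of these data known, and the interaction fit was added after the data were examined. All members are named; of the partner list, the 2 genes with the smallest p in each part, and of the markers those called. Myh2, Myh7, Myh3, Chrna1, Chrng, Ncam1, Myod1, Pax7, Myog, Myf5 and the tendon genes were named after their values were seen. The animals are separate per the labels. Marker lists of smooth muscle, satellite cells, regenerating and spindle fibres, fibroblasts, endothelium, adipocytes, macrophages and blood, besides those named above, had 1 call, Myh8, against 0.36% of all genes. Markers below the filter were not tested. The tests covered 5 of 5 smooth muscle, 3 of 3 fibroblast and 3 of 3 endothelium markers. They covered 2 of 4 each for satellite cells, regenerating fibres and spindle fibres, 2 of 3 each for macrophages and blood, and 1 of 3 for adipocytes.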

Additional observations from a re-analysis of the deposited data

Results flagged for a closer look

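In 4 of 60 groups of 4 libraries, 1 library stood far from the other 3, measured as its gap to the nearest value over the whole range of log2 values; about 1 in 20 groups would do so by chance. These were control 3 for Mylpf, with a ratio of 0.858, as its highest value, and for Myoz3, with 0.920, as its lowest. Control 1 was the lowest control for Pvalb, with 0.830, and it is the control with Xist. Knockout 1 was the highest knockout for Tnnt2, with 0.896, and it is the library with the highest slow troponins and denervation markers.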

How the results depend on the processing

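In none of 20 fits did a member pass between genotypes, 8 of them leaving out 1 library each, and the same held for the partner genes. Few of all genes passed in those fits, from 0 of 11096 with the replicate block to 223 of 11096 with Xist as a covariate. The repeated count of 0 is near that share and says little about the members. Of 29 members 15 kept their direction in all 19 alternative fits. Signs turned with Xist as a covariate for Myl2 at -0.63, Mybpc1 at -0.020, Myoz2 at -0.11, Mybpc2 at 0.015 and Actn3 at 0.023; in the 5 libraries without Xist for Myl2 at -0.65, Actn2 at -0.11, Myoz2 at -0.65, Csrp3 at -0.61, Ankrd2 at -0.33, Mybpc2 at 0.25, Actn3 at 0.19 and Myoz3 at 0.25; without knockout 2 and knockout 4 for Myl2 at -1.29, Mybpc1 at -0.10, Actn2 at -0.21, Myoz2 at -0.96, Csrp3 at -0.95, Ankrd2 at -0.55, Mybpc2 at 0.29, Actn3 at 0.28, Myoz1 at 0.032, Myoz3 at 0.22, Pvalb at 0.064 and Ampd1 at 0.041; with quantile normalization for Tnni2 at 0.13, Mybpc2 at 0.0088 and Actn3 at 0.049; and with array weights for Myl3 at 0.30. When 1 library was left out, signs turned for Myl2 (-0.62 to 0.66), Myl3 (-1.27 to 0.15), Mybpc2 (-0.28 to 0.045), Actn3 (-0.28 to 0.0077), Myoz2 (-0.075 to 0.91) and Myoz3 (-0.24 to 0.031). The cause was not tested. Members without overlap numbered 11 in the 5 libraries without Xist, where 31.8% of all genes did not overlap, and 4 to 7 when 1 library was left out, where 10.5% to 14.6% of all genes did not. Carm1 stood at -0.80 without the libraries with Xist and at -0.94 with the replicate number as a block, with exact p-values of 0.1 and 0.125, the smallest those designs allow. Members called by Xist ranged from 1 to 11 when 1 library was left out, with 0.757% to 18.7% of all genes. Same-numbered animals correlated at -0.43, -0.19, 0.35 and 0.19 in their deviations from the group means, values of both signs. Control 1 correlated at 0.48 with knockout 2 and at 0.37 with knockout 4, the other libraries with Xist. Whether the numbers mark shared litters or days cannot be told from these values. With the replicate block 0 members and 0 of all 11096 genes passed, so that fit says nothing about the members. Without scaling the median of all genes was 0.07. The tables give no depth, so the precision of low members such as Tnni1 and Tnnt2 is unknown.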

Other observations

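The 3 libraries with Xist did not share 1 profile of slow genes. Control 1 had the highest Myl2 and Myl3 of all libraries, 152 and 247 scaled FPKM, against 99.1 and 46.8 in knockout 2 and 101 and 66.0 in knockout 4. The type I myosin Myh7 was also highest in control 1, at 4.75 against 1.73 and 1.83. Knockout 2 and knockout 4 instead had the highest Csrp3, Myoz2, Ankrd2 and Myh2, with 343 and 304 for Myoz2 against 177 in control 1.

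Control 3, which has no Xist, lay above control 2 and control 4 in Csrp3, Ankrd2, Ankrd1 and Mybph, picked after their values were seen. It held 259 scaled FPKM of Csrp3, 213 of Ankrd2, 20.4 of Ankrd1 and 165 of Mybph, where control 2 held 83.4, 73.4, 4.71 and 24.3. Of these, Csrp3 and Ankrd2 had high values in the libraries with Xist, whereas Mybph was high in control 1 alone of those and Ankrd1 was as high in knockout 1. The Myoz2, Myl2 and Myh2 of control 3, at 76.3, 9.83 and 153, were as low as in the other libraries without Xist.

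Myod1, a myogenic regulator, was high in control 3, knockout 1 and knockout 3, at 47.4, 42.8 and 37.6, and lay between 15.2 and 19.6 in the other 5 libraries. The 3 high libraries lack Xist, and the difference by Xist was -0.90 (adjusted p from limma 0.105). Of the other satellite cell markers listed, Myog was also highest in the same 3 libraries, at 6.41, 8.94 and 6.84. Pax7 was lowest in those 3, at 0.388, 0.505 and 0.365 against 0.633 to 0.859 elsewhere. Myf5 followed neither arrangement, at 0.946, 0.612 and 0.715 in those 3. It was lowest in knockout 4, at 0.606, and highest in control 2, at 1.18. Pax7 and Myf5 were below the filter and were not tested.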
